A study of Homo sapiens with 8 samples.

Results

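ETS factors are transcription factors that share one DNA-binding domain and recognise sites built around a GGAA core, and several of them are altered in prostate cancer. The 10 genes described here were chosen by name: ETV1, ETV4 and ETV5 of the PEA3 subfamily, ERG and FLI1, the epithelial and related factors ELF1, ELF3, EHF and SPDEF, and ETS2. All 10 were found among the 57905 genes of the table, and the other 18 genes of the ETS family were read beside them. RNA-seq counts from 8 libraries of total RNA were used, 4 of EnzaR and 4 of LNCaP prostate cancer cells.

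EnzaR is labelled as an enzalutamide-resistant line and was grown with 10 uM of enzalutamide, an inhibitor of the androgen receptor. Its libraries are 2 with an siRNA against YAP1 (siYAP1) and 2 with a control siRNA (siNC), each at 40 nM for 48 h. LNCaP, a prostate cancer line from a lymph node metastasis, is labelled as sensitive to the drug and was grown without it. Its libraries are 1 each of cells given EnzaR vesicles from YAP1-depleted donors (EV-siYAP1), from CII-depleted donors (EV-siCII), where CII is COUP-TFII (the gene NR2F2), and from control donors (EV-siNC), for 48 h, and of cells given vehicle (control). Both lines were kept in the same serum-containing medium. The labels used here do not name the line from which EnzaR was made, and do not say that the replicates came from different cultures; the p-values therefore speak of the variation among these libraries, which may be technical. Line, drug in the medium and siRNA transfection run together between EnzaR and LNCaP and cannot be told apart.

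In prostate cancer, ERG, ETV1, ETV4 and, less often, ETV5 and FLI1 are switched on by fusion to androgen-driven genes such as TMPRSS2. The PEA3 proteins act downstream of ERK signalling, are repressed at the gene by CIC and are degraded through the ubiquitin ligase subunit COP1. SPDEF, EHF and ELF3 belong to the luminal programme of glandular epithelia, and LNCaP is known for a rearrangement that places the ETV1 locus inside MIPOL1 on chromosome 14.

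Libraries held 16682669 to 18248939 counts, and mitochondrial genes took 4.76% to 6.83% of them. CPM below means the read count scaled to a common depth, with TMM factors over the 8 libraries. In a siNC library, 3 counts correspond to at most 0.166 CPM. YAP1 was at 5.99 and 7.32 CPM in siYAP1 libraries, against 59.6 and 49.0 CPM in siNC libraries, as the labels say (log2 fold change -3.02, SE 0.15, edgeR adjusted p = 2.07e-10). All 9 luminal markers used here were detected in both lines, with sums of 3833 to 4211 CPM in EnzaR and 2953 to 3327 CPM in LNCaP, and 4 were called higher and 3 lower in EnzaR siNC. KLK3, the PSA gene, was at 1159 to 1306 CPM in EnzaR and 41.5 to 47.7 CPM in LNCaP, and without it the other 8 summed to 2630 to 2905 CPM in EnzaR and 2909 to 3280 CPM in LNCaP. The basal markers KRT5 and TP63 were at 0 in every library, as were the blood markers PTPRC and CD3E. Of the same blood list, LCP1, an actin-bundling protein, was at 488 to 528 CPM in EnzaR and 30.6 to 39.8 CPM in LNCaP; its part in the results was not tested. Across lines, 69.8% of 16671 genes tested passed an adjusted p of 0.05 (34.6% higher and 35.2% lower in EnzaR siNC), so a call between the lines is common for any gene. LNCaP here means its 4 libraries together, 3 of which had received EnzaR vesicles.

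Levels between genes were compared as FPKM, the authors' value per length and depth. In EnzaR, SPDEF had the highest level, 117 ± 13.2 FPKM (SD, n = 4 libraries of both siRNAs). EHF followed at 23.2 ± 6.23 FPKM and ELF3 at 10.0 ± 1.20 FPKM. ETS2 (3.13 ± 0.10 FPKM) and ELF1 (2.44 ± 0.68 FPKM) came next in EnzaR, with libraries that overlapped, so this pair is not ordered. ETV4 was at 0.075 ± 0.033 FPKM, ETV5 at 0.01 FPKM in each EnzaR library, and ETV1 at 0 in 3 of 4 EnzaR libraries and 0.01 in the other.

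LNCaP kept the same first 3 places, with SPDEF at 87.2 ± 6.51, EHF at 18.7 ± 2.68 and ELF3 at 11.7 ± 0.84 FPKM (SD, n = 4 libraries of 4 treatments). ELF1 (3.84 ± 0.33 FPKM) and ETV1 (3.17 ± 0.55 FPKM) had overlapping LNCaP libraries. ETS2 was lower, at 2.21 to 2.35 FPKM against 2.43 FPKM in the lowest ETV1 library. ETV4 (0.13 ± 0.03 FPKM) and ETV5 (0.12 ± 0.08 FPKM) overlapped. Over all 28 ETS genes, SPDEF alone took 48.5% to 59.9% of the summed FPKM in EnzaR and 44.3% to 49.4% in LNCaP. ERF, a repressor, and ELK1, a partner of serum response factor, were the most abundant of the other ETS genes, at 20.9 ± 0.26 and 17.3 ± 1.97 FPKM in EnzaR against 19.1 ± 1.98 and 19.4 ± 0.97 FPKM in LNCaP.

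**Figure D1:**
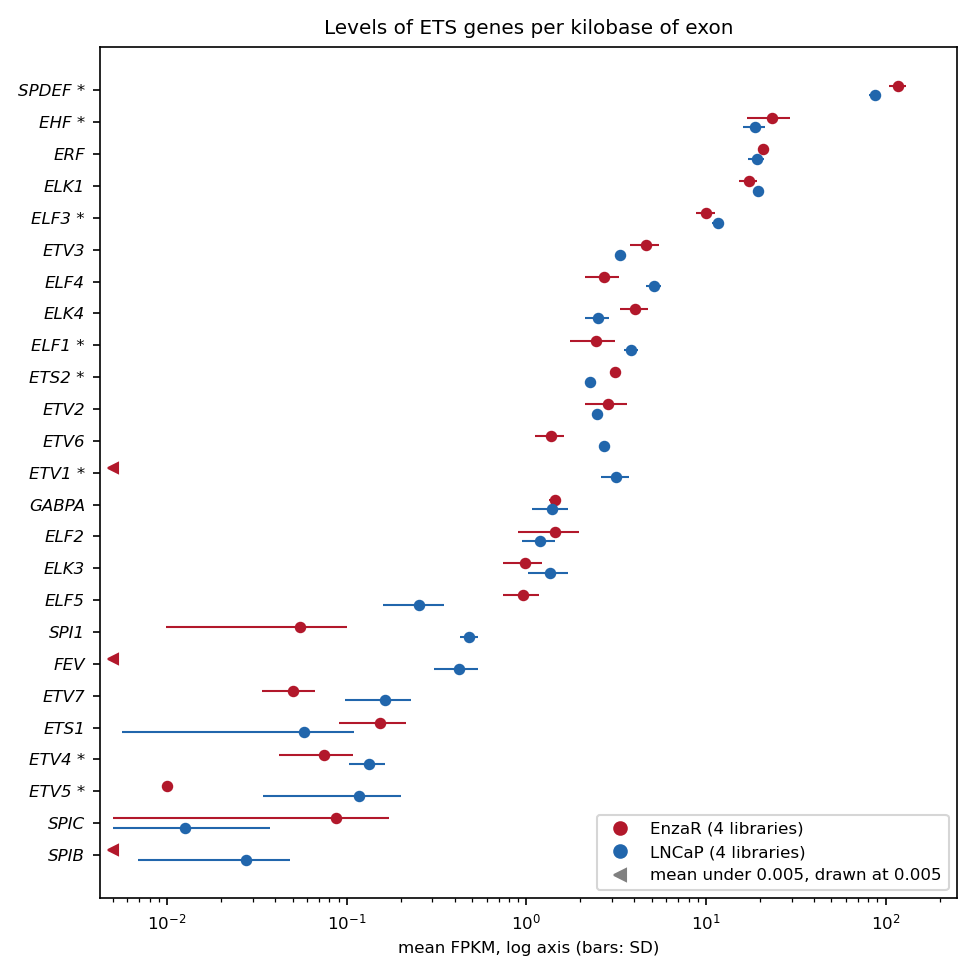
Mean FPKM (horizontal log axis) of the 25 ETS genes with a mean above 0.02 in either line, EnzaR (red, drawn above) and LNCaP (blue, below), with SD over 4 libraries each and bars cut at 0.005; asterisks mark the genes chosen by name. Triangles at 0.005 stand for means under 0.005. SPDEF stands to the right of all others in both lines, and ETV1 lies at 3.17 FPKM in LNCaP and is such a triangle in EnzaR.

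Of the 10 genes, 7 passed the filter on low counts in the comparison of lines, and 5 of the 7 were called: EHF, SPDEF and ETS2 rose in EnzaR, and ETV1 and ETV5 fell. ELF1 and ELF3 did not pass the threshold, ETV4 had too few reads for a test, and ERG and FLI1 had no read in any library. The 5 of 7 stand against 69.8% over all genes, and ETV1 and ETV5 passed the filter only through LNCaP. The median log2 fold change of the 7 was -0.06, against -0.04 for all genes. Set against the vehicle-treated LNCaP library alone, only EHF remained called as higher and ETV1 as lower, which leaves 1 higher and 1 lower.

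ETV1 (ENSG00000006468; hg19 chr7:13930853-14031050, minus strand) showed the widest gap of the 10. It had 0, 1, 0 and 0 counts in EnzaR (siYAP1 1 and 2, siNC 1 and 2), against 639, 562, 553 and 415 counts in LNCaP (EV-siYAP1, EV-siCII, EV-siNC, control). The 2 lines did not overlap. In LNCaP this is 29.6 ± 4.65 CPM (SD, n = 4), so ETV1 was at least 179-fold lower in EnzaR siNC, taking 3 counts per library as the floor (edgeR adjusted p = 7.93e-15). Summed over all libraries, 1 EnzaR count against 2169 LNCaP counts gives an LNCaP level 2041-fold that of EnzaR (95% exact interval 366 to 80663, counting error only). That count is in siYAP1 replicate 2, the only EnzaR library with counts of the stromal markers COL3A1 (58), DCN (7) and LUM (6). The stromal markers COL1A1 (376 counts) and PDGFRB (7 counts) were not highest there, and the source of these reads was not tested. ETV1 was called under every one of the 17 settings tried. In such bulk libraries fewer cells that express a gene and less RNA per cell cannot be told apart.

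The promoter of ETV1 is shown because it lies upstream of a transcript with 1 read in all EnzaR libraries together and 415 to 639 reads per LNCaP library. RefSeq windows on GRCh38.p14 were found for 7 of the 10 genes (19 windows in all) and not for ETV4, ETV5 and FLI1; only the 250 bases before the start were searched. Capitals mark CCGGAA on either strand, called the ETS core below. The core recognised by TEAD proteins, the DNA-binding partners of YAP1, was searched as GGAATG on either strand and is called the TEAD core below. The 2 cores share the bases GGAA, so matches can overlap. The most upstream ETV1 window is chr7:13991426-13991675, minus strand, written 5′ to 3′:
ETV1: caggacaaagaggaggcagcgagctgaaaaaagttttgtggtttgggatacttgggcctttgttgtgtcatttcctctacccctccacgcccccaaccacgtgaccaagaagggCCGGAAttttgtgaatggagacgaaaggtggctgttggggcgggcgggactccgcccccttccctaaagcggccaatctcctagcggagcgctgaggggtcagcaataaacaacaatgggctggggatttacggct

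The ETS core begins 136 bases before that start. It was present in 3 windows of the 10 genes, all of ETV1, and 2 of those 3 windows lie 4 bases apart and share the match. Over all 35116 windows of this length, 14.5% held the ETS core and 11.9% the TEAD core. The TEAD core was present in 2 of the 19 windows, both of ERG, which had no read in any library. A match is only a description of letters and shows no binding.

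Of 13 genes within 1 Mb of ETV1, only ETV1 and DGKB, a diacylglycerol kinase, had enough reads for a test. The others had no read in any library, so only DGKB can be set beside ETV1. DGKB had 1.26 and 1.99 CPM in EnzaR siNC and 2.03 to 4.23 CPM in LNCaP (log2 fold change -0.92, SE 0.33, edgeR adjusted p = 0.0175), so it had reads in every library of both lines.

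On chromosome 14, MIPOL1 itself, the host of the known LNCaP rearrangement, was higher in EnzaR siNC. Its EnzaR siYAP1 values, 7.97 and 9.01 CPM, lay inside the LNCaP range. It had 13.7 and 20.5 CPM in EnzaR siNC and 5.08 to 9.76 CPM in LNCaP (log2 fold change 1.24, SE 0.20, edgeR adjusted p = 9.7e-06). Of 38 genes within 1 Mb of MIPOL1, 9 were tested and 7 were called, near the 69.8% of all genes. TTC6, which lies next to MIPOL1 and FOXA1, had 19.4 and 20.3 CPM in EnzaR siNC, against 89.0, 65.6, 64.5 and 46.4 CPM in LNCaP (EV-siYAP1, EV-siCII, EV-siNC, control; log2 fold change -1.74, SE 0.20, adjusted p = 4.1e-06). FOXA1, a pioneer factor for the androgen receptor, fell as well, with 294 and 268 CPM in EnzaR siNC against 441 to 480 CPM in LNCaP (log2 fold change -0.70, SE 0.08, adjusted p = 8.66e-08). NKX2-8, PAX9 and an unnamed transcript (ENSG00000259087) fell, MBIP rose with a log2 fold change of 1.65, and SLC25A21 and SLC25A21-AS1 did not pass. NKX2-8 and the unnamed transcript passed the filter only through LNCaP. FOXA1 and TTC6 overlap in their coordinates. MIPOL1, TTC6 and ETV1 each had their lowest LNCaP value in the control library and their highest in the EV-siYAP1 library. That order was not particular to them. PAX9 (11.5 and 15.9 CPM), DGKB (2.03 and 4.23 CPM), ELK4 (21.7 and 30.1 CPM) and TMPRSS2 (98.4 and 139 CPM) had it too, while FOXA1 was lowest with EV-siYAP1.

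ETV5 had 1 count in each of the 4 EnzaR libraries, against 22, 15, 4 and 6 counts in LNCaP (EV-siYAP1, EV-siCII, EV-siNC, control). The lines did not overlap, and the LNCaP libraries spread widely. Summed, 4 EnzaR counts against 47 LNCaP counts make the LNCaP level 11.1-fold that of EnzaR (95% exact interval 4.04 to 42.3). The log2 fold change was -3.39 (SE 0.95, edgeR adjusted p = 0.00308). It was -2.47 and did not pass with the control library alone (adjusted p = 0.109), and ETV5 had too few reads for the filter when EV-siYAP1 or EV-siCII was left out.

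ETV4 had 2, 5, 7 and 5 counts in EnzaR (siYAP1 1 and 2, siNC 1 and 2) and 6, 10, 9 and 9 counts in LNCaP. The lines overlapped, and the summed ratio of LNCaP to EnzaR was 1.68 with an interval from 0.93 to 3.13, so a difference was not detectable at this depth. ETV4 overlaps DHX8 on the other strand, which had 858 to 1222 counts. A count of 0 for ERG and FLI1 in every library allows up to 3 counts per library, or at most 0.166 CPM in a siNC library.

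**Figure D2:**
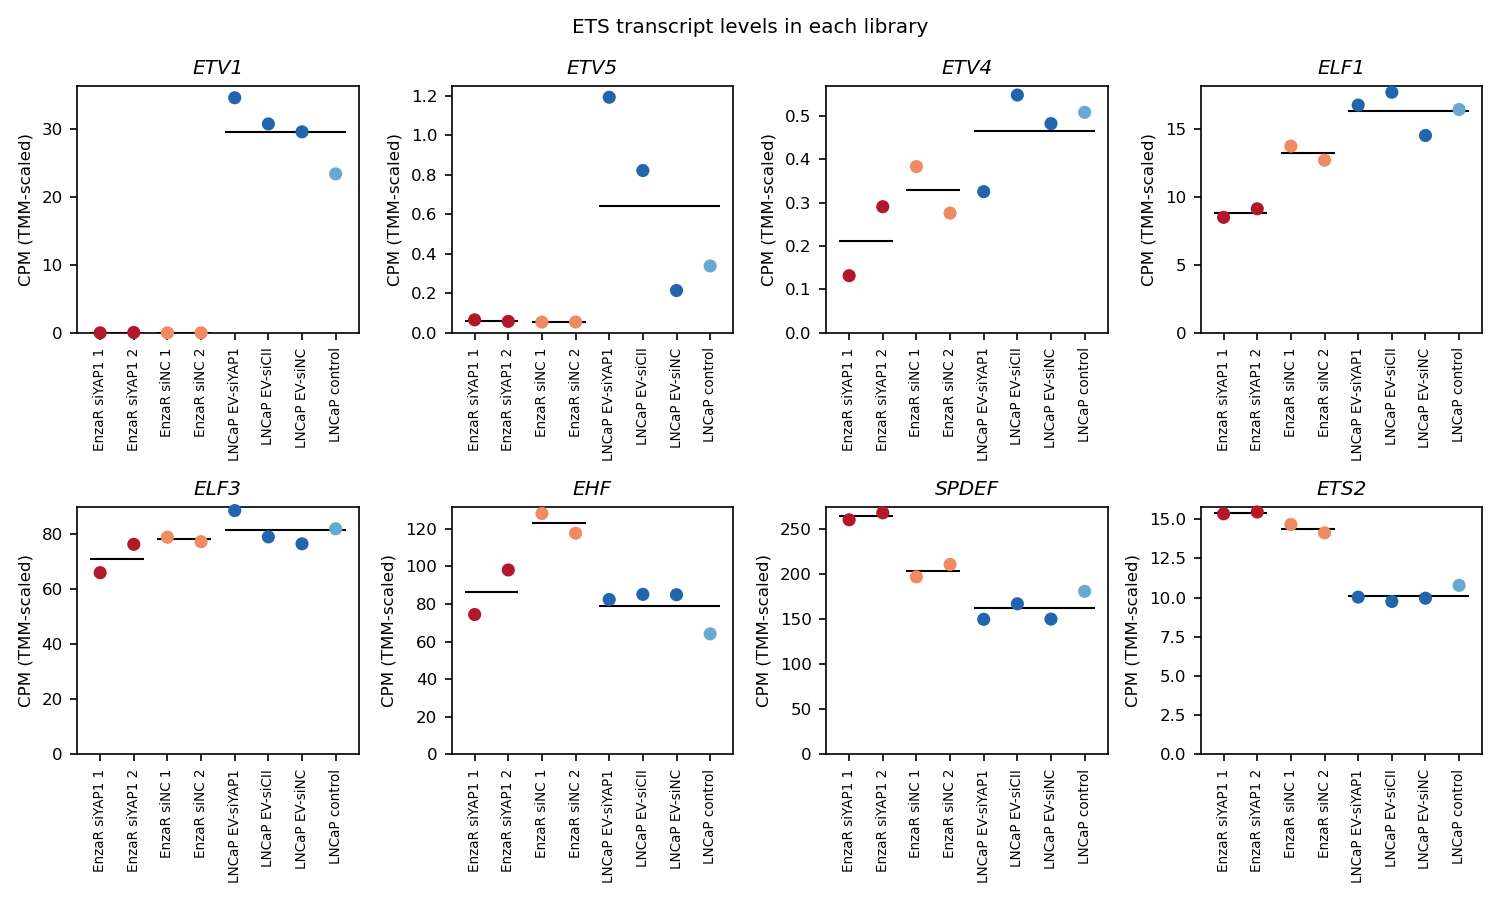
CPM (vertical linear axis from 0, its own range per gene) of the 8 named ETS genes with reads, 1 point per library, with EnzaR siYAP1, EnzaR siNC and LNCaP from left to right and group means as black lines. ETV1 lies at 23.4 to 34.6 CPM in LNCaP and at or near 0 in EnzaR, while ELF3 stays between 65.8 and 88.4 CPM in all 8 libraries.

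The luminal factors moved by less than 2-fold between the lines. EHF, an epithelial ETS factor that is often low in advanced prostate tumours, had 128 and 118 CPM in EnzaR siNC, against 82.4, 85.1, 84.9 and 64.1 CPM in LNCaP (EV-siYAP1, EV-siCII, EV-siNC, control). All siNC values lay above all LNCaP values, as they did or the reverse for 75.6% of genes tested. EHF rose with a log2 fold change of 0.63 (SE 0.11, edgeR adjusted p = 2.68e-05). It lost the call under a correction for GC content and length (0.15, adjusted p = 0.163), and it was larger against the control library alone (0.94).

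SPDEF, the prostate-derived ETS factor and a partner of the androgen receptor, had 197 and 210 CPM in EnzaR siNC, against 150, 167, 150 and 180 CPM in LNCaP, in the same library order as for EHF, which the genes below keep. The groups did not overlap, but the control library was the nearest to EnzaR. The log2 fold change was 0.33 (SE 0.09, edgeR adjusted p = 0.0016). It was 0.18 against the control library alone and did not pass (adjusted p = 0.158), and it was 0.84 after the GC and length correction.

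ETS2, a widely expressed factor that ERK signalling activates, had 14.7 and 14.1 CPM in EnzaR siNC and 10.0, 9.75, 9.96 and 10.8 CPM in LNCaP. The groups did not overlap and each was tight. Its log2 fold change of 0.51 (SE 0.14, edgeR adjusted p = 0.00311) fell just short with the control library alone (0.42, adjusted p = 0.0619).

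ELF3, an epithelial factor induced by inflammatory signals, had 78.7 and 77.1 CPM in EnzaR siNC and 88.4, 78.8, 76.3 and 81.8 CPM in LNCaP. The groups overlapped, and the log2 fold change was -0.06 (SE 0.09, adjusted p = 0.559). With the GC and length correction it was 0.39 and passed (adjusted p = 0.000213), so its direction depends on that choice. ELF1, a broadly expressed member of the ELF branch, had 13.7 and 12.7 CPM in EnzaR siNC and 16.8, 17.7, 14.5 and 16.4 CPM in LNCaP. These groups did not overlap, and the log2 fold change of -0.31 (SE 0.15) had an adjusted p of 0.0651. It passed under 4 alternatives, among them the GC and length correction (-1.02) and the libraries without EV-siNC (-0.37, adjusted p = 0.0401). Across tested genes with a known GC content, the log2 fold change between the lines correlated with GC at a Spearman rho of -0.34; the part of GC content in these results was not tested beyond the correction. ELF1 transcripts are 38.1% GC, EHF 42.4%, ELF3 56.0% and SPDEF 64.6%. ELF1 also overlaps WBP4 and ELF3 overlaps ELF3-AS1, each on the opposite strand, and strand use in counting is not given.

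**Figure D3:**
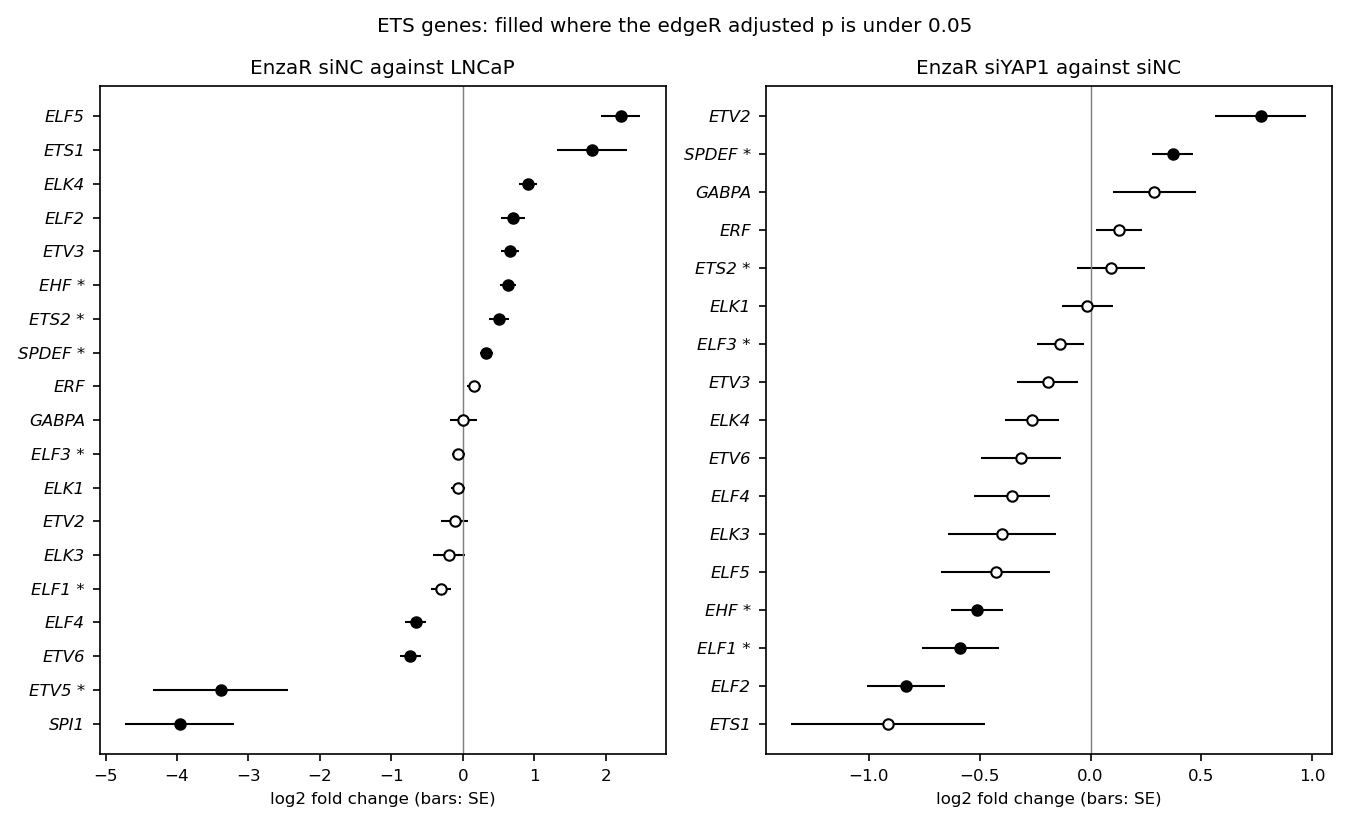
Log2 fold changes with SE (horizontal axes) of the ETS genes tested, for EnzaR siNC against LNCaP (left) and EnzaR siYAP1 against siNC (right), filled where the edgeR adjusted p is under 0.05 and with asterisks at the genes chosen by name; ETV1 and FEV, at 0 in siNC, are left out. Between lines the values run from -3.96 (SPI1) to 2.21 (ELF5), and after YAP1 knockdown from -0.91 (ETS1) to 0.77 (ETV2).

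Of the other 18 ETS genes, 14 were tested between the lines, with 5 higher and 4 lower. Over all genes tested, 34.6% were higher and 35.2% lower. ELF5, known from mammary alveolar cells, had 5.31 and 4.86 CPM in EnzaR siNC and 0.62 to 1.48 CPM in LNCaP (log2 fold change 2.21, SE 0.27, adjusted p = 2.35e-07). ETS1, the relative of ETS2, had 1.53 and 1.38 CPM in EnzaR siNC and 0.16 to 0.87 CPM in LNCaP (1.81, SE 0.49, adjusted p = 0.0023). ELK4, a serum response factor partner (0.91), ELF2 (0.70) and the repressor ETV3 (0.66) rose. ELF2 lost its call when the mean of siNC and siYAP1 was set against LNCaP (0.29, adjusted p = 0.0826). FEV, a serotonergic neuron factor, had 0 counts in all 4 EnzaR libraries and 18, 10, 14 and 19 counts in LNCaP (EV-siYAP1, EV-siCII, EV-siNC, control), at least 5.05-fold lower in EnzaR siNC with 3 counts per library as the floor (adjusted p = 4.56e-05). SPI1, the myeloid factor PU.1, had 2 and 0 counts in EnzaR siNC and 15 to 20 counts in LNCaP (log2 fold change -3.96; -7.09 without siNC replicate 1 and -3.04 without siNC replicate 2). The repressor ETV6 (-0.73) and ELF4 (-0.66) fell. FEV and SPI1 passed the filter only through LNCaP, and ETS1 only through EnzaR. With the control library alone 6 of the 28 ETS genes were higher and 5 lower, against 8 and 6 with all LNCaP libraries.

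The genes to which ETS factors are fused in prostate tumours were all measured. All 11 were called between the lines, 6 higher and 5 lower, where 69.8% of all genes tested were called. KLK2, an androgen-induced kallikrein, had 200 and 213 CPM in EnzaR siNC and 14.5 to 19.5 CPM in LNCaP (log2 fold change 3.62, SE 0.09, edgeR adjusted p = 1.02e-18). TMPRSS2, the usual partner of ERG, had 325 and 316 CPM in EnzaR siNC and 98.4 to 139 CPM in LNCaP (1.45, SE 0.10, adjusted p = 8.41e-12). ERG had no read in either line. HNRNPA2B1, a splicing factor (2.35), MIPOL1 (1.24), DDX5 (1.16) and ACSL3 (0.80) rose. NDRG1, a stress and androgen-response gene (-2.23), FOXP1 (-1.05), CANT1 (-0.80) and HERPUD1 (-0.54) fell. SLC45A3 had the smallest change of the 11 (-0.23, adjusted p = 0.0298).

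Of 10 genes that control ETS proteins, 3 were higher and 3 lower, where 34.6% and 35.2% of all genes tested were. COP1, which marks PEA3 proteins for degradation, had 29.4 and 35.1 CPM in EnzaR siNC and 14.0 to 16.2 CPM in LNCaP (log2 fold change 1.13, SE 0.12, adjusted p = 2.99e-08). CUL4A, the scaffold of that ligase (1.37), and ATXN1, a partner of CIC (0.31), rose, while the ligase subunits DDB1 (-0.88) and DET1 (-0.89) fell. CIC, the repressor of the PEA3 genes, had 56.1 and 55.9 CPM in EnzaR siNC and 116 to 129 CPM in LNCaP (-1.11, SE 0.09, adjusted p = 3.97e-10).

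Of 15 genes induced by ERK signalling, 12 were tested, and 5 fell and 1 rose. Over all genes tested, 35.2% fell and 34.6% rose. DUSP4, a phosphatase that inactivates ERK, had 5.47 and 5.57 CPM in EnzaR siNC and 34.8 to 40.9 CPM in LNCaP (log2 fold change -2.73, SE 0.15, adjusted p = 3.29e-13). PHLDA1 (log2 fold change -3.41), SPRY1 (-3.30) and SPRED1 (-1.84) fell too, and SPRY1 and SPRED1 are feedback inhibitors of the pathway. SPRY1, with 10 and 6 counts in EnzaR siNC and 58 to 91 counts in LNCaP, passed the filter only through LNCaP. CCND1 fell (-0.22), DUSP5 rose (1.00), and DUSP6, with 0.38 and 0.50 CPM in EnzaR siNC against 0.40 to 1.57 CPM in LNCaP, did not pass (adjusted p = 0.111). The median over the 12 was -0.23, against -0.04 over all genes.

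Of 15 genes reported as targets of ERG or ETV1, 8 had enough reads, and 5 fell and 1 rose. The share over all genes tested was 35.2% lower and 34.6% higher. VIM, an intermediate filament of mesenchymal cells, was at 0.71 and 0.99 CPM in EnzaR siNC, against 261 to 286 CPM in LNCaP (log2 fold change -8.33, SE 0.50, adjusted p = 6e-06). SOX9, a progenitor factor (-1.71), TDRD1, a germline gene (-1.48), CACNA1D, a calcium channel (-1.26), and KCNS3 (-0.49) fell, while CRISP3 rose (1.06). The secreted proteases on the list had few reads in either line: MMP1, MMP3, MMP7 and MMP9 stayed under 0.28 CPM. MMP13 reached 0.33 CPM in EnzaR and 0.81 CPM in LNCaP (EV-siYAP1), and PLAU reached 0.55 CPM in EnzaR and 0.28 CPM in LNCaP.

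YAP1 knockdown in EnzaR addresses which genes depend on the co-activator YAP1. After it, 5 of the 10 genes were tested, with SPDEF higher and EHF and ELF1 lower. The background was 12.1% of 14948 genes (5.83% higher and 6.22% lower), and all 5 groups of 2 against 2 libraries were separate, as for 58.5% of genes. ETV1, ETV5, ETV4, ERG and FLI1 had too few reads in EnzaR for this comparison. The median log2 fold change of the 5 was -0.14, against -0.03 for all genes.

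EHF had 74.4 and 98.1 CPM in siYAP1 and 128 and 118 CPM in siNC. Both siYAP1 values lay below both siNC values, and 1 of the 2 lay inside the LNCaP range of 64.1 to 85.1 CPM. The log2 fold change was -0.51 (SE 0.12, edgeR adjusted p = 0.0104). The 2 siYAP1 libraries differed by 0.40 on the log2 scale, and without siYAP1 replicate 1 the change was -0.34 and did not pass (adjusted p = 0.222).

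ELF1 had 8.49 and 9.12 CPM in siYAP1 and 13.7 and 12.7 CPM in siNC, below its LNCaP range of 14.5 to 17.7 CPM in both. The log2 fold change was -0.59 (SE 0.17, edgeR adjusted p = 0.0326). This call was lost with DESeq2 (adjusted p = 0.0628) and when any 1 of the 4 libraries was left out (adjusted p 0.052 to 0.259).

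SPDEF had 260 and 267 CPM in siYAP1 and 197 and 210 CPM in siNC, with no overlap and small gaps within each group. The log2 fold change was 0.37 (SE 0.09, edgeR adjusted p = 0.0178). It did not pass with library totals alone (0.27, adjusted p = 0.0603), without siNC replicate 1 (0.31, adjusted p = 0.182) or without siYAP1 replicate 1 (0.38, adjusted p = 0.145). ELF3 (65.8 and 76.1 CPM in siYAP1, 78.7 and 77.1 CPM in siNC) and ETS2 (15.3 and 15.5 CPM in siYAP1, 14.7 and 14.1 CPM in siNC) did not pass (adjusted p = 0.412 and 0.728).

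Among the ETS genes called, direction went with base composition. Those that fell, ELF1, ELF2 and EHF, have transcripts of 38.1%, 39.6% and 42.4% GC. Those that rose, SPDEF and ETV2, have 64.6% and 66.3% GC. Genes not called did not all keep this order: GABPA, at 36.4% GC, was at 0.29, and ELF4, at 56.0% GC, at -0.35. The part of GC content was not tested beyond the correction below. Across all tested genes with a known GC content, the log2 fold change after YAP1 knockdown correlated with GC at a Spearman rho of 0.48. After a correction for GC and length, the log2 fold changes were -0.38 for EHF (adjusted p = 0.058), -0.39 for ELF1 (0.219) and 0.08 for SPDEF (0.685), so 0 of 5 remained called. Of all 17 ETS genes tested, 2 rose and 3 fell as counted, and none passed after the correction.

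**Figure D4:**
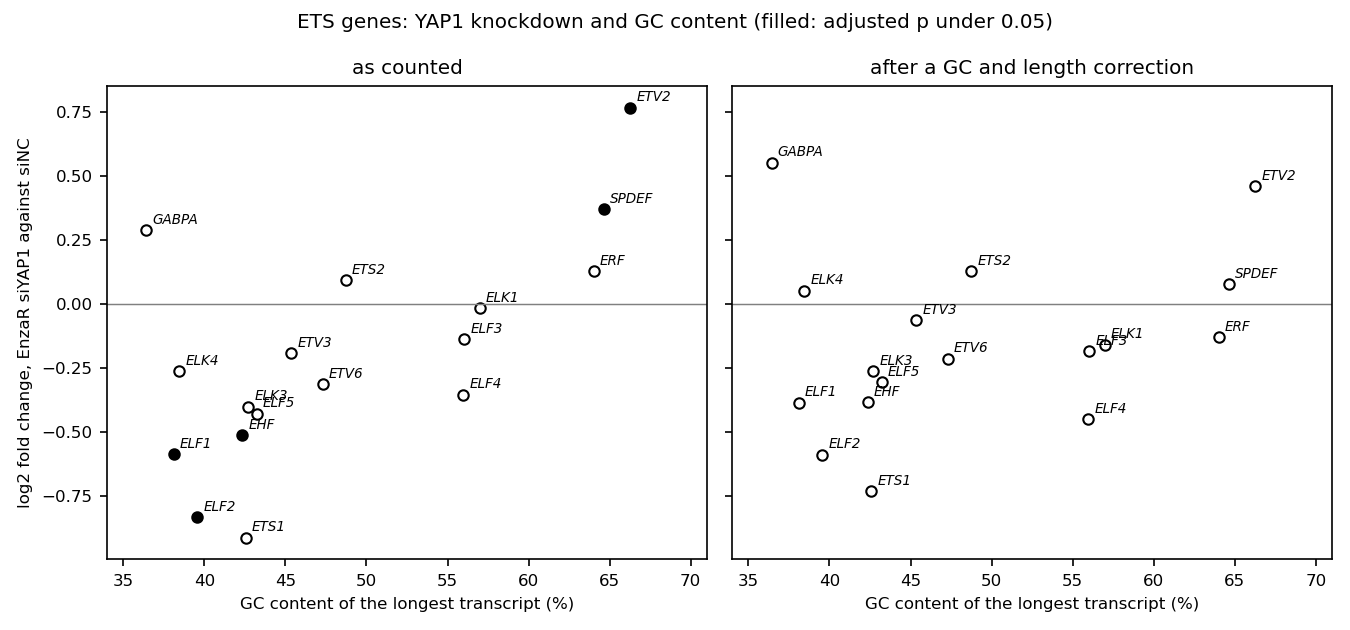
Log2 fold change of EnzaR siYAP1 against siNC (vertical axis) and GC content of the longest transcript (horizontal axis, %) for the 17 ETS genes tested, as counted (left) and after the GC and length correction (right), filled where the adjusted p is under 0.05. The 5 filled points at left, 3 low in GC and below 0 and 2 high in GC and above 0, are open at right.

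The promoters of EHF and SPDEF are shown because these abundant luminal factors went in opposite directions as counted, although neither call held after the correction. Written as above, neither holds CCGGAA or GGAATG on either strand in the 250 bases before its most upstream start, so neither line has capitals. Both hold the shorter GGAA, which was not searched on its own. On GRCh38.p14 the EHF window is chr11:34624007-34624256, plus strand, and the SPDEF window is chr6:34556330-34556579, minus strand.
EHF: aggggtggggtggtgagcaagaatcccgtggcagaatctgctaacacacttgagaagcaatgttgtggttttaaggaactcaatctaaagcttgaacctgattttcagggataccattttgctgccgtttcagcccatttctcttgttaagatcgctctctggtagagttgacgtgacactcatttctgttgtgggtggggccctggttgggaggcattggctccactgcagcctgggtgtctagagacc
SPDEF: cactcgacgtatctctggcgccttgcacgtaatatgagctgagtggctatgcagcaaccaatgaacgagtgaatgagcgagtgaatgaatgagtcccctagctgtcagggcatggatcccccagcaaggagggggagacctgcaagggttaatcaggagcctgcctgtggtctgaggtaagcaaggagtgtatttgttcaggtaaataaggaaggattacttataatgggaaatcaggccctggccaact

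Of the other 18 ETS genes, 12 were tested after YAP1 knockdown, with 1 higher and 1 lower. Over all genes tested, 5.83% were higher and 6.22% lower. ETV2, an endothelial factor, had 8.03 and 8.20 CPM in siYAP1 and 4.76 and 4.75 CPM in siNC (log2 fold change 0.77, SE 0.21, edgeR adjusted p = 0.0231). ELF2 had 7.77 and 10.3 CPM in siYAP1 and 15.5 and 16.7 CPM in siNC (-0.83, SE 0.18, adjusted p = 0.00699). Neither call held in every setting: ETV2 was lost when any 1 library was left out, and ELF2 without siYAP1 replicate 1. Such a fit leaves 1 library in a group, so for ETV2 the losses single out no library. ELF2 had risen between the lines, and the siYAP1 values overlap its LNCaP range of 7.62 to 11.8 CPM.

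Among the fusion partners, 3 of 11 fell with YAP1 knockdown and 0 rose, where 6.22% of all genes fell and 5.83% rose. MIPOL1 had 7.97 and 9.01 CPM in siYAP1 and 13.7 and 20.5 CPM in siNC (log2 fold change -1.01, SE 0.20, adjusted p = 0.00418). NDRG1 (-0.48, adjusted p = 0.00751) and DDX5 (-0.36, adjusted p = 0.0276) fell as well. Their transcripts are 40.1% (MIPOL1), 52.1% (NDRG1) and 42.7% (DDX5) GC. After the GC and length correction the changes were -0.70 for MIPOL1 (adjusted p = 0.0499), -0.42 for NDRG1 (0.02) and -0.18 for DDX5 (0.316), which lost its call. TMPRSS2 had 255 and 282 CPM in siYAP1 and 325 and 316 CPM in siNC and did not pass (-0.26, adjusted p = 0.0743).

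Of the 10 regulators of ETS proteins, ATXN1L, another partner of CIC, fell (log2 fold change -0.49, adjusted p = 0.0148), as did USP9X, a deubiquitinase that stabilises ERG (-0.40, adjusted p = 0.0369), and none rose. The share over all genes tested was 6.22% lower and 5.83% higher. Among 10 tested genes of ERK output, EPHA2, a receptor tyrosine kinase, fell (-0.52, edgeR adjusted p = 0.0306). Of 8 tested ETS targets, SOX9 fell, with 6.39 and 8.14 CPM in siYAP1 and 13.0 and 10.0 CPM in siNC (-0.66, SE 0.20, adjusted p = 0.0341). After the GC and length correction USP9X (-0.11, adjusted p = 0.65) and SOX9 (-0.70, adjusted p = 0.052) did not pass, while ATXN1L (-0.43) and EPHA2 (-0.70) did. The LNCaP range of SOX9 was 32.8 to 43.5 CPM.

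Of the 10 genes, SPDEF had the highest mean FPKM over the 8 libraries, and the 3 genes whose log2 CPM followed it most closely over the 8 libraries were RNF135, RRP7A and VARS2. Their Pearson r values were 0.992, 0.989 and 0.988 among 8923 genes compared. Within the 4 EnzaR libraries the r values were 0.974, 0.982 and 0.997, and within the 4 LNCaP libraries 0.987, 0.913 and 0.962. The points share line, depth and base composition, and these values describe likeness only.

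The LNCaP libraries ask whether vesicles from EnzaR cells, with or without YAP1 or COUP-TFII in the donors, change the recipients. There is 1 library per treatment, so ratios below carry 95% exact intervals for counting error only and have no test. Of the 10 genes, 6 reached 10 CPM in LNCaP, and 0 of the 6 passed 2-fold in any of the 3 comparisons. The background was as low: 5 genes were higher (0.0552%) and 6 lower (0.0663%) of 9056 for EV-siNC against control, 1 (0.0109%) and 4 (0.0438%) of 9136 for EV-siYAP1 against EV-siNC, and 1 (0.011%) and 6 (0.0661%) of 9072 for EV-siCII against EV-siNC. The comparisons share the EV-siNC library.

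With EV-siYAP1 vesicles, ETV1 had 639 counts, against 553 with EV-siNC (log2 ratio 0.24, interval 0.07 to 0.40). ELF3 had 1630 counts with EV-siYAP1 against 1425 with EV-siNC (0.22, interval 0.12 to 0.33). ELF1 was at 0.22 (interval -0.02 to 0.46), and EHF, SPDEF and ETS2 had intervals that held 0. The spread of all genes in this comparison was 0.18 (SD of log2 ratios), so these ratios lie near it.

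With EV-siCII vesicles, SPDEF had 3043 counts against 2796 with EV-siNC (log2 ratio 0.16, interval 0.09 to 0.24) and ELF1 had 323 against 271 (0.29, interval 0.06 to 0.53). The other 4 genes had intervals that held 0. The SD of log2 ratios over all genes in this comparison was 0.17.

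ETV5 had few counts, below the level at which shares over all genes were counted. It had 22 counts with EV-siYAP1 against 4 with EV-siNC (log2 ratio with a prior count of 2, 2.02; interval without one, 0.93 to 4.49), and 15 counts with EV-siCII against the same 4 (1.53, interval 0.298 to 3.998), while the control library had 6. ETS1 followed the same order, with 16 and 8 counts against 3 with EV-siNC and 3 in the control. ELK3 (141 and 127 counts against 97) and GABPA (164 and 152 counts against 120) had intervals above 0 in both comparisons too. For ETV4, ELF5, ETV2, ETV7, FEV, SPI1 and SPIB the intervals held 0 in both. These genes, and the next, were picked out after their values were seen and lie under the 10 CPM asked of the others. DUSP6 and SPRY2, feedback genes of ERK signalling, had 29 and 14 counts with EV-siYAP1 against 13 and 5 with EV-siNC, with intervals of 0.20 to 2.25 and -0.04 to 3.34 for the log2 ratios. SPRY4 had 7 counts against 4 (interval -1.14 to 3.06) and SPRED1 77 against 77 (log2 ratio 0.03). DUSP4, with more reads, had 755 against 649 counts (0.25, interval 0.09 to 0.40), and SPRY1 83 against 58 (0.53, interval 0.05 to 1.06), with 91 counts with EV-siCII and 88 in the control. Other genes induced by ERK signalling were lower with EV-siYAP1 than with EV-siNC. SPRED2 had 248 against 315 counts, PHLDA1 65 against 91, CCND1 3716 against 3974 and IER3 11 against 13. EPHA2 (521 against 354), DUSP5 (130 against 114), EGR1 (75 against 61) and FOSL1 (16 against 13) were higher. With EV-siCII, DUSP6 (17 counts) and SPRY2 (6 counts) had intervals that held 0.

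For EV-siNC vesicles against vehicle, EHF had 1586 counts, against 1136 in the control (log2 ratio 0.39, interval 0.28 to 0.51). ETV1 had 553 counts against 415 (0.33, interval 0.14 to 0.52). SPDEF had 2796 counts with EV-siNC against 3198 in the control (-0.28, interval -0.35 to -0.21). ELF3 (-0.11, interval -0.22 to -0.004), ELF1 (-0.19) and ETS2 (-0.12) were near 0. The spread of all genes was widest in this comparison, with an SD of log2 ratios of 0.25, and the ratios of ETV1 and SPDEF lie near it. EHF and ETV1 were lowest, and SPDEF highest, in the control among the 4 LNCaP libraries. The ratios in this comparison also moved with GC content, with a Spearman rho of -0.54 over 9056 genes, against -0.04 and 0.20 in the other comparisons. After the GC and length correction the log2 ratios were 0.26 for EHF, 0.04 for ETV1 and -0.06 for SPDEF. They were -0.40 for ELF1, the furthest from 0 of the 6, -0.02 for ELF3 and -0.15 for ETS2.

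**Figure D5:**
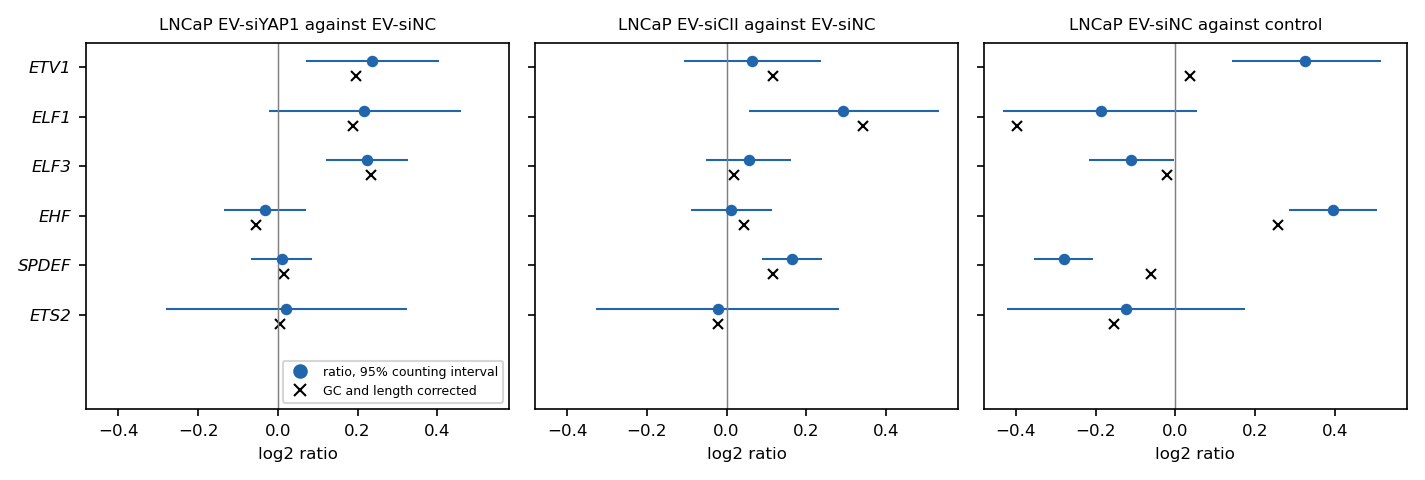
Log2 ratios (horizontal axes, same range) of the 6 named ETS genes at 10 CPM or more for EV-siYAP1 against EV-siNC, EV-siCII against EV-siNC and EV-siNC against control in LNCaP, 1 library each; circles with bars give the ratio and its 95% counting interval, crosses the ratio after the GC and length correction. In the panel at right the cross of ETV1 lies at 0.04 and that of SPDEF at -0.06, beside ratios of 0.33 and -0.28 as counted.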

How the data were processed

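Total RNA libraries were compared, 4 of EnzaR and 4 of LNCaP cells, grouped from the sample labels. The authors deposited whole read counts and FPKM per Ensembl gene. Tools listed without a role in the submitters' processing notes are HTSeq 0.6.1, HISAT2 2.0.1, cutadapt 1.9.1 and DESeq2, with the build hg19 (GRCh37). The annotation release and the use of strand are not given in the sources that were used. The deposited FPKM equalled counts over exonic length and column total for all 463240 values within 0.0051, and were used only for levels between genes. Names were matched by Ensembl identifier for 39538 of 57905 genes (98.96% of counts).

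The test on counts was the robust quasi-likelihood test of edgeR 4.0.16 (R 4.3.3; TMM scaling, filterByExpr, Benjamini-Hochberg over all genes tested, threshold 0.05), and the SE was the log2 fold change over the square root of F. EnzaR siNC against LNCaP used all 8 libraries in 3 groups (EnzaR siNC 2, EnzaR siYAP1 2, LNCaP 4), and siYAP1 against siNC the 4 EnzaR libraries. LNCaP ratios used a prior count of 2. Alternatives were DESeq2 1.42.0, limma 3.58.1 voom, other scalings, no filter on low counts, a 2-fold threshold, a smooth GC and length surface (mgcv 1.9.3, GC known for 97.1% and 97.3% of genes tested), a replicate block and libraries left out; scripts were tested on simulated data. GC content came from a GRCh38 annotation and promoters from RefSeq on GRCh38.p14, and coordinates of genes are the table's. Counting intervals and floors cover counting error only. Members and lists were chosen with earlier results of these data known. Named genes were the 10 members and other ETS genes that passed in either comparison. Of each further list, up to 4 genes per direction with the largest change were named. Tested genes within 1 Mb of ETV1 and MIPOL1 and the 3 most like SPDEF were named too. DDX5, ACSL3, SLC45A3, CCND1, KCNS3, DUSP6, ERF, ELK1, KLK3 and LCP1 were added after their values were seen. So were PLAU, SPRY2, SPRY4, SPRED2, EGR1, FOSL1, IER3, ELK3, GABPA, ETV7, SPIB, the stromal markers and the MMP genes. Another luminal marker is not reported here. Among markers of other cells, endothelial ones summed to 8.43 to 9.11 CPM in EnzaR and 10.4 to 13.1 CPM in LNCaP, blood ones (nearly all LCP1) to 488 to 528 and 30.8 to 39.9 CPM, stromal ones to 19.4 to 26.4 and 106 to 122 CPM, and basal ones to at most 0.33 and 0.48 CPM; their part in the results was not tested.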

Additional observations from a re-analysis of the deposited data

Results flagged for a closer look

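EHF in the LNCaP control library, at 64.1 CPM, lay far from the other 3 LNCaP libraries (82.4 to 85.1 CPM): its gap to the nearest was 0.87 of the range of the 4. It is also the only LNCaP library without vesicles. 17 ETS genes were examined in this way, and chance sets apart about 1 in 20 such groups.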

How the results depend on the processing

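Of the 5 members called between the lines, ETV1 was called under every setting, and the count of members was 3 higher and 2 lower in most settings and 1 and 1 with the LNCaP control library alone. Under the GC and length correction 3 ETS genes changed sign between the lines and passed the threshold: ELF3 (0.39), ETV2 (0.49) and GABPA (-0.71). ELK1 changed sign without passing (0.18); the cause was not tested. Asking also for 2-fold left 2803 genes higher and 3258 lower between the lines, against 5766 and 5870. After YAP1 knockdown, 872 genes were higher and 930 lower. Those counts were 291 and 1416 with library totals alone, which moved the median of all genes by -0.10, and 239 and 251 with the GC and length correction. Asking also for 2-fold left 19 and 78, DESeq2 gave 567 lower, and the fit over all 8 libraries gave 473 lower. With 1 library left out they ran from 15 to 940 higher and from 11 to 829 lower, lowest without siYAP1 replicate 1, and the lone library left was assumed to vary like the others. With a replicate block 564 genes were higher and 845 lower, and the block changed no member's call. The difference between replicates 1 and 2 in siNC did not follow that in siYAP1 over genes (correlation -0.08). With 2 pairs, this cannot show whether same-numbered libraries were handled together. For EV-siNC against control, 9 genes were 2-fold higher with library totals and 2 with the GC and length correction, against 5. Depth limits ETV4, ETV5, ERG and FLI1.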
